A study of Cannabis sativa with 12 samples.

Results

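The laccases of the hemp hypocotyl were followed over the switch from elongation to thickening. Of the 3622 assembled transcripts (contigs) in the table, 14 were taken as laccases: 11 carry the symbol LAC followed by a number, and 3 carry another symbol but the word laccase in their description. The 14 contigs bear 5 Arabidopsis names, with 3 contigs matched to LAC4, 8 to LAC17 and a single contig each to LAC5, LAC12 and LAC13. Whole hypocotyls of Cannabis sativa cv. Santhica 27, a fibre hemp, were taken at an age, counted from sowing, of 6 days (H6), 9 days (H9), 15 days (H15) or 20 days (H20). No treatment was applied, and all plants grew in incubators set to 25 °C during the 16 h light period and 20 °C during the 8 h dark period. Each day is represented by 3 libraries, and each library by a pool of 20 hypocotyls from a single experimental batch. Because pools of whole organs were sequenced, a lower level can mean fewer cells of a type or less RNA per cell, and these cannot be told apart.

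Laccases are secreted enzymes with several copper atoms that use oxygen to oxidise phenols. In the cell wall they turn monolignols, the building blocks of lignin, into radicals that couple into the polymer, a task they share with the class III peroxidases, which use hydrogen peroxide instead. In Arabidopsis, LAC4 (also IRX12, after the collapsed xylem of its mutant) and LAC17 act together in the lignification of the stem. LAC5, LAC12 and LAC13 belong to the same family. The study gives LAC12 a putative role in stem lignification as well, and calls the part of LAC5 and LAC13 not yet proven. In bast fibre plants the question has a particular side, since the xylem core of the stem lignifies strongly and the bast fibres very little.

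A contig is named after its closest Arabidopsis match, and contigs that share a name may be separate hemp genes, variants or pieces of the same transcript. Their lengths run from 359 bp for LAC17 contig 8833 to 3477 bp for LAC4 contig 18137, and 3 LAC17 contigs are shorter than 400 bp. No contig sequence or genome position was used here, so it was not tested which of these cases applies. The transcript of the family that was singled out for amplification is LAC4 contig 5768, and its primers are given as the study lists them for that contig. Whether they also match the other LAC4 contigs was not checked. The primers are shown 5′ to 3′, in lower case throughout since no part of them is marked.
LAC4 forward: aatggactcttccataattcgac
LAC4 reverse: tcggactctacattcaaccaaag
Both primers are 23 nucleotides long, with 9 G or C in the forward and 10 in the reverse primer. Contig 5768 has the highest mean level of the family on days 15 and 20, as described further on.

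The implied number of mapped reads was 13413472 to 25855413 per library, and a laccase contig drew 14 to 20322 reads. Only 15 of the 168 laccase counts were under 100. Levels are given in RPKM (reads scaled to the length of the contig and to the mapped reads of the library), for each pool in the order of its number or as mean ± SD of 3 pools. Changes are log2 fold changes with their standard error (SE) from edgeR's quasi-likelihood test on the read counts, with p adjusted by the Benjamini-Hochberg method over all 3622 contigs. A call of higher or lower needs both an adjusted p below 0.05 and a log2 fold change beyond 1 in that direction. The table holds only contigs that the authors had already selected because they differed among the 4 days, so each p is a call within that selection, and the shares of all contigs that were called are given beside the laccase counts. Any laccase contig that did not pass that selection is absent, so the family here means the selected laccase contigs only.

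As a family, the selected laccase contigs were lowest in the youngest hypocotyls and highest on day 15. The summed level of the 14 contigs was 290.5, 283.3 and 175.8 RPKM in the H6 pools, 905.1, 619.7 and 989.1 in those of H9, 1776, 1908 and 1637 in those of H15 and 1359, 1431 and 1424 in those of H20. The 4 days did not overlap, and H20 lay between H9 and H15. In reads, where a short contig weighs less, laccases took 263.1 ± 98.8 per 1000000 mapped reads at H6, 1015 ± 259 at H9, 2955 ± 171 at H15 and 2381 ± 50.6 at H20 (SD, n = 3). The mean was highest in H15 for 10 of the 14 contigs, in H9 for 3 and in H20 for 1, and in H6 for none. Among all 3622 contigs, by contrast, 40.6% had their highest mean in H6 and 19.8% in H15.

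**Figure D1:**
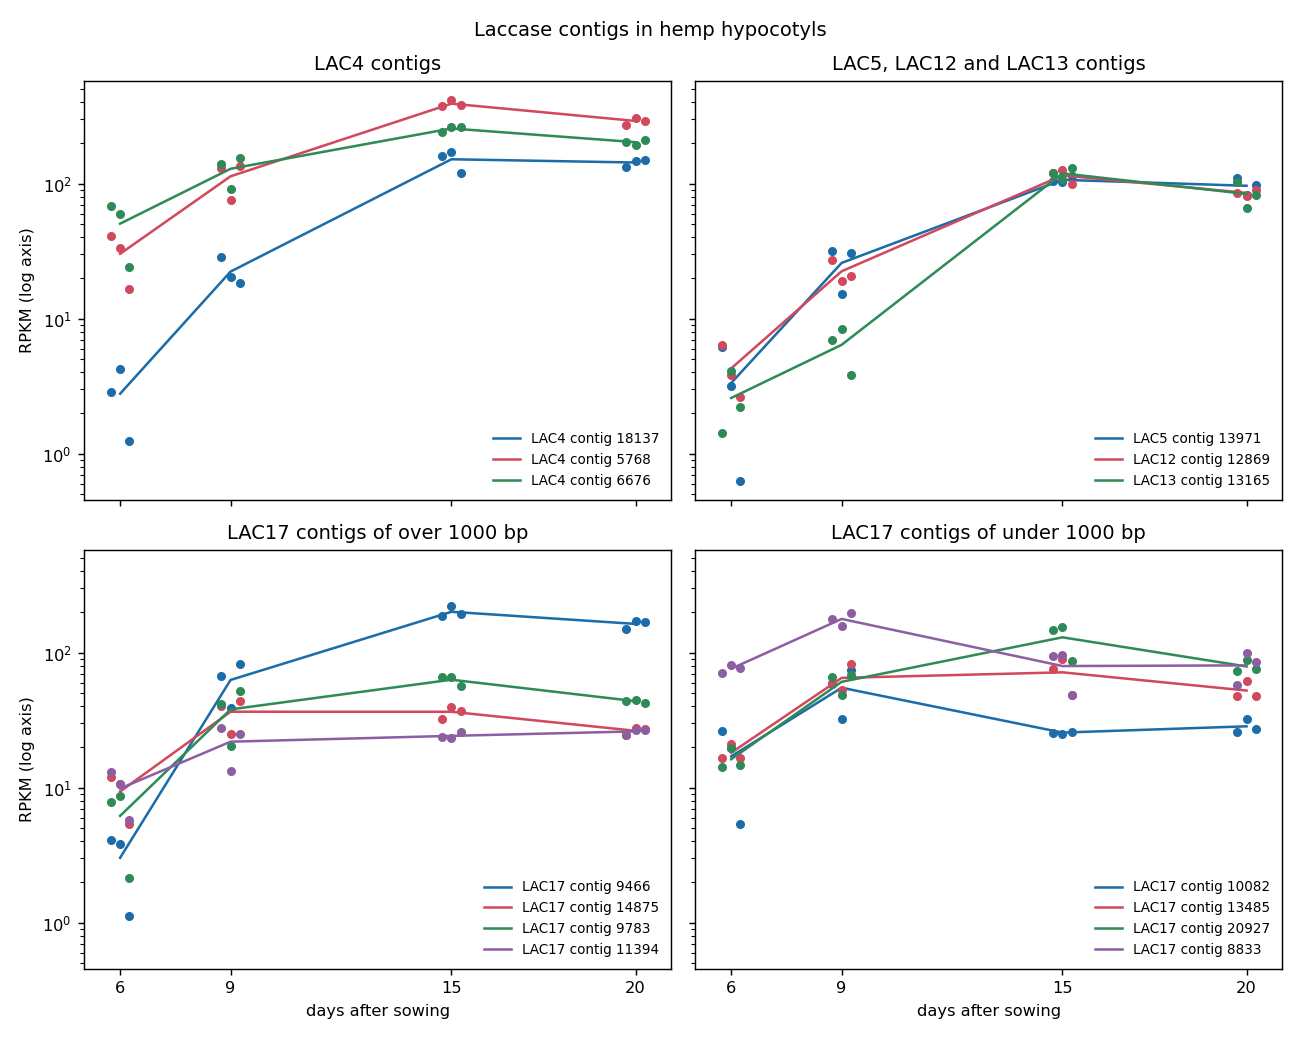
RPKM of the 14 laccase contigs (log axis) against days after sowing; each point is a pool, lines join the means of 3 pools, and panels group contigs by name and, for LAC17, by length. LAC4, LAC5, LAC12, LAC13 and LAC17 contig 9466 climb to H15, whereas LAC17 contigs 8833 and 10082 stand highest in H9, with means of 178.0 and 55.0 RPKM.

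LAC4, the laccase best known from lignifying xylem, held the most abundant contigs of the older hypocotyls. All 3 of its contigs rose, and they rose by unequal amounts. Contig 5768, the amplified transcript, had 40.9, 33.2 and 16.7 RPKM at H6, 130.8, 75.1 and 134.5 at H9, 375.4, 416.5 and 383.8 at H15 and 273.9, 307.3 and 293.7 at H20. The days did not overlap in any pair, and the H20 pools lay below every H15 pool and above every H9 pool. In edgeR it was higher in H20 than in H6 by 3.37 (log2; SE 0.30, adjusted p 2.23e-07).

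Contig 18137, the longest of the family, had 2.87, 4.23 and 1.24 RPKM at H6, 28.5, 20.2 and 18.3 at H9, 161.6, 172.7 and 121.0 at H15 and 133.7, 148.0 and 148.9 at H20. It was near the bottom of the family in H6 and 4th in H20, and its H20 pools lay within the range of H15. Its log2 fold change in H20 against H6 was 5.80 (SE 0.36, edgeR adjusted p 1.16e-08), the 7th largest of all 3622 contigs. Contig 6676 started from 68.0, 59.5 and 24.3 RPKM in H6 and had 138.9, 91.9 and 156.3 at H9, 242.0, 262.4 and 265.3 in H15 and 204.7, 193.8 and 210.8 in H20. Its days did not overlap either, and H20 again lay between H9 and H15. On average it was the most abundant LAC4 contig of H6 and H9, and it rose least of the 3, by 2.11 in H20 against H6 (SE 0.30, edgeR adjusted p 1.92e-05). Of the summed LAC4 level, contig 6676 held 31.8 ± 1.82% in H20 and 59.9 ± 2.10% in H6, and contig 18137 held 22.5 ± 0.556% in H20 and 3.29 ± 0.948% in H6 (SD, n = 3).

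LAC5, LAC12 and LAC13 were barely expressed on day 6 and reached about the same level as each other on day 15. LAC5 contig 13971 had 6.20, 3.18 and 0.63 RPKM at H6, 31.7, 15.2 and 30.8 at H9, 104.0, 102.7 and 113.9 at H15 and 109.8, 82.1 and 97.8 at H20. H6, H9 and H15 were fully apart, and H20 overlapped with H15. It was higher in H20 than in H6 by 4.99 (SE 0.52, edgeR adjusted p 9.21e-07), with the widest standard error of the family; 1 H6 pool gave only 14 reads.

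LAC12 contig 12869 had 6.35, 3.84 and 2.65 RPKM at H6, 27.4, 19.1 and 20.9 at H9, 119.4, 126.5 and 99.5 at H15 and 85.5, 81.3 and 89.5 at H20. The 4 days were apart, with H20 below H15, and the rise in H20 against H6 was 4.44 (SE 0.26, edgeR adjusted p 6.40e-09). LAC13 contig 13165 had 1.42, 4.10 and 2.23 RPKM in H6 and 7.00, 8.36 and 3.84 in H9, against which its 119.2, 108.7 and 130.2 in H15 and 103.3, 66.5 and 82.0 in H20 stood out. It was the late member: H6 and H9 overlapped, H15 lay above every other day, and nearly all of its rise fell between days 9 and 15. In H15 against H9 it rose by 4.37 (SE 0.34, edgeR adjusted p 2.59e-07), the 5th largest change of all contigs in that step, and in H20 against H6 by 5.12 (SE 0.36, adjusted p 2.92e-08), the 14th largest.

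The 8 contigs matched to LAC17, the partner of LAC4 in Arabidopsis stems, did not follow a common course. Contig 9466, at 2248 bp the longest of them, had the strongest rise of the family. It had 4.11, 3.84 and 1.13 RPKM at H6, 67.7, 39.1 and 81.9 at H9, 187.3, 222.9 and 193.2 at H15 and 149.7, 172.2 and 168.5 at H20. All 4 days were apart, with H20 between H9 and H15. In H9 against H6 it rose by 4.38 (SE 0.39, edgeR adjusted p 1.04e-06), second only to a single other contig of the 3622, and in H20 against H6 by 5.87 (SE 0.41, adjusted p 3.04e-08), the 6th largest. Its share of the summed LAC17 level was 32.7 ± 1.33% in H20 and 1.86 ± 0.857% in H6.

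Contig 8833, of 359 bp, took another course. It had 70.6, 80.7 and 77.1 RPKM at H6, 179.1, 158.2 and 196.7 at H9, 94.5, 96.1 and 48.5 at H15 and 58.1, 98.9 and 84.7 at H20. Only H9 stood above the other days, while H6, H15 and H20 overlapped. In H20 against H6 its log2 fold change was 0.18 (SE 0.25, edgeR adjusted p 0.494). In H15 against H9 it fell by 1.02 (SE 0.24, adjusted p 0.00196), the only laccase contig called lower in any comparison. That call sits at the fold limit and was lost with DESeq2 (-0.99), without pool H15-3 (-0.76) and without pool H9-3 (-0.92). Contig 8833 held 15.9 ± 2.61% of the summed LAC17 level in H20 and 49.7 ± 9.19% in H6. Over the 12 libraries its level (log2(RPKM + 1)) had a Pearson r between -0.38 and 0.60 with the other 13 laccase contigs, a description only, since all contigs share the libraries and the time course.

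Contig 10082 came closest to it. It had 26.1, 19.7 and 5.37 RPKM at H6, 58.3, 32.1 and 74.8 at H9, 25.6, 25.2 and 26.1 at H15 and 25.7, 32.4 and 27.4 at H20. The H9 pools were above those of H6 and of H15, and H20 overlapped with H6. In H20 against H6 its log2 fold change was 0.85 (SE 0.42, edgeR adjusted p 0.0727), which passed the limits with DESeq2 (1.14), in a fit of those days alone (1.09) and without pool H6-1 (1.30). In H15 against H9 it was -0.98 (SE 0.41, adjusted p 0.0444), just inside the fold limit, and was called lower without TMM factors (-1.11) and without pool H9-2 (-1.26).

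The remaining 5 LAC17 contigs all rose in H9 against H6, and only contig 20927 was called again in a later step, H15 against H9. Contigs 14875, 11394 and 13485 rose in H9 against H6 by 1.96, 1.15 and 1.83 (edgeR adjusted p 3.33e-05, 0.00295 and 2.96e-05), and in H15 against H9 had log2 fold changes of 0.14, 0.28 and 0.28 (adjusted p 0.630, 0.361 and 0.290). Their H9 and H15 pools overlapped. Contig 14875, for example, averaged 9.37 ± 3.53 RPKM at H6, 36.6 ± 10.2 at H9, 36.5 ± 3.69 at H15 and 26.4 ± 1.74 at H20. Contig 11394, with 9.87 ± 3.79, 21.9 ± 7.49, 24.2 ± 1.43 and 26.1 ± 1.27 RPKM on the 4 days in order, was the only laccase contig with its highest mean in H20. The rise of contig 11394 in H9 lost its call without pool H6-3 (0.87) or pool H9-1 (0.97).

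Contigs 9783 and 20927, higher in H9 than in H6 by 2.63 and 1.89 (edgeR adjusted p 9.11e-05 and 1.56e-05), went on to their highest means in H15. Contig 9783 averaged 6.19 ± 3.53 RPKM at H6, 38.0 ± 16.2 at H9, 63.1 ± 5.58 at H15 and 43.8 ± 1.01 at H20. Its H15 pools were above those of H9, yet the log2 fold change of 0.86 (SE 0.37, edgeR adjusted p 0.0480) stayed under the fold limit, which it passed without pool H9-3 (1.19). Contig 20927, of 361 bp, averaged 16.3 ± 3.04 RPKM at H6, 60.9 ± 10.7 at H9, 130.1 ± 37.3 at H15 and 79.1 ± 7.75 at H20. It rose in H15 against H9 by 1.23 (SE 0.22, edgeR adjusted p 2.19e-04).

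Counted by step, the family rose first as a whole and then in part. In H9 against H6, all 14 laccase contigs were called higher and 0 lower in edgeR, against 17.9% and 18.2% of all contigs, and the H9 pools lay above all H6 pools for 13 of the 14, against 38.1% of all contigs. The exception was LAC13, whose call was also lost when pools H6-3 and H9-2 were left out together (0.95, adjusted p 0.0571). The median log2 fold change was 1.90 over the laccases and 0.03 over all contigs. In that step the number of all contigs called depended on the scaling, with 647 higher and 658 lower under TMM and 909 higher and 458 lower under DESeq2's size factors, which moved all log2 fold changes by a median of 0.23.

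In H15 against H9, 8 laccase contigs were called higher and 1 lower, against 22.7% and 20.8% of all contigs. The 8 were the 3 LAC4 contigs, LAC5, LAC12, LAC13 and LAC17 contigs 9466 and 20927, and the median log2 fold change was 1.18 over the laccases and -0.12 over all contigs. LAC4 contig 6676 rose by 1.13 here (SE 0.29, edgeR adjusted p 0.00336) and dropped under the fold limit without pool H9-2 (0.93) and without TMM factors (0.99).

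In H20 against H15, edgeR called 0 laccase contigs higher and 0 lower, against 5.25% and 8.31% of all contigs, and DESeq2 likewise called 0. At an unadjusted p under 0.05, 2 of the 14 differed, against 49.7% of all contigs. The log2 fold change was below 0 for 12 of the 14, among them contig 8833 (-0.02), which was above 0 with DESeq2 (0.02), with a median of -0.41 over the laccases and -0.07 over all contigs. For 7 of the 14, all H20 pools lay below all H15 pools, against 30.7% of all contigs; these were LAC4 contigs 5768 and 6676, LAC12, LAC13 and LAC17 contigs 9466, 14875 and 9783. Contig 20927 had the most negative value, -0.75 (SE 0.22, edgeR adjusted p 0.0158), under the fold limit and with overlapping pools.

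Over the whole period, H20 against H6, 12 laccase contigs were called higher and 0 lower, against 34.2% and 37.4% of all contigs. The H20 pools lay above all H6 pools for these same 12, against 40.1% of all contigs, and the 2 others were LAC17 contigs 8833 and 10082. The median was 2.66 over the laccases and -0.58 over all contigs. Under DESeq2, which placed all contigs higher by a median of 0.29 and called 1402 higher and 1007 lower where TMM called 1238 and 1356, the laccase median was 2.95.

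**Figure D2:**
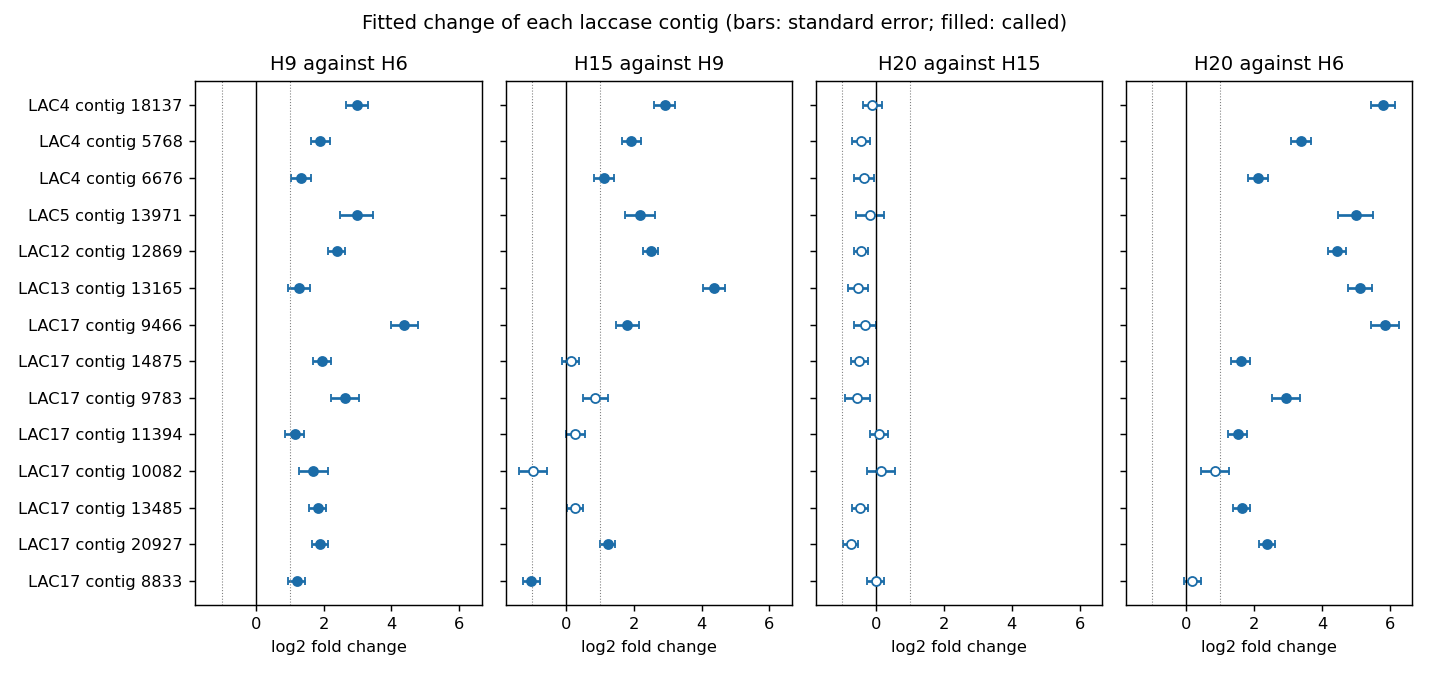
Log2 fold change of each laccase contig in 4 comparisons, from edgeR, with bars of 1 standard error; filled points were called, with an adjusted p below 0.05 and a log2 fold change beyond 1 in size (dotted lines), open points were not. All 14 points are filled in H9 against H6, 9 in H15 against H9, 0 in H20 against H15 and 12 in H20 against H6.

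The make-up of the family also changed with age: LAC5, LAC12 and LAC13 gained and LAC17 lost ground. Each name's share of the summed laccase RPKM was compared among the 4 days with an exact permutation test over the 12 libraries, adjusted over the 5 names. LAC5 held 1.21 ± 0.891% at H6, 3.02 ± 0.536% at H9, 6.07 ± 0.808% at H15 and 6.89 ± 1.17% at H20 (exact permutation adjusted p 0.00162). LAC12 held 1.68 ± 0.442%, 2.74 ± 0.545%, 6.48 ± 0.349% and 6.09 ± 0.348% on the same days (exact permutation adjusted p 0.00211). LAC13 held 1.07 ± 0.510% and 0.837 ± 0.484% in H6 and H9, then 6.79 ± 1.13% and 6.00 ± 1.49% in H15 and H20 (exact permutation adjusted p 0.00660). LAC17 held 63.8 ± 8.26% and 61.9 ± 1.90% in H6 and H9, and 35.5 ± 3.06% and 35.6 ± 2.81% in H15 and H20 (exact permutation adjusted p 0.00787). Each of these shares had the later 2 days on the same side of the earlier 2, without overlap between libraries.

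For LAC4 the order of H20 and H6 depended on the shortest contigs. Its share was 32.2 ± 7.44% at H6, 31.5 ± 1.39% at H9, 45.2 ± 1.65% at H15 and 45.4 ± 0.407% at H20 (exact permutation adjusted p 0.00935). Without the 3 LAC17 contigs under 400 bp, an alternative chosen after seeing the data, LAC4 held 60.6 ± 1.78% at H6, 49.96 ± 1.98% at H9, 53.6 ± 0.680% at H15 and 53.5 ± 1.51% at H20, which puts H20 below H6 but still above H9 on average. By summed reads, in which long contigs weigh more, it held 56.4 ± 4.90% at H6, 50.2 ± 1.504% at H9, 57.4 ± 0.773% at H15 and 58.4 ± 1.29% at H20, and the difference between H20 and H6 was smaller than the spread. LAC17 lost share on each of these measures, with 24.2 ± 1.45% in H20 and 32.0 ± 2.33% in H6 without the short contigs, and 25.1 ± 1.59% in H20 and 38.3 ± 4.77% in H6 by reads. In H9 it held 39.5 ± 3.57% without the short contigs and 42.9 ± 2.55% by reads. On both measures LAC4, not LAC17, thus had the larger mean share in H6 and H9.

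**Figure D3:**
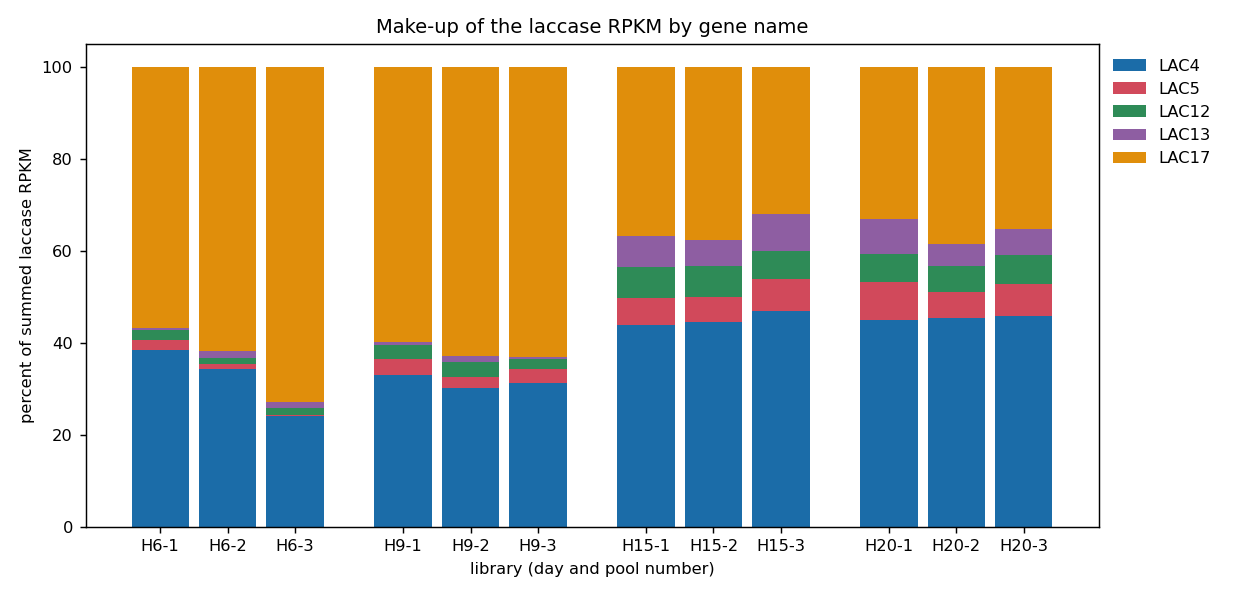
Share of the summed laccase RPKM (percent) held by the contigs of each of the 5 names, in each of the 12 libraries. LAC17 holds most of every H6 and H9 bar and LAC4 the largest part of every H15 and H20 bar. Without the 3 LAC17 contigs under 400 bp, LAC4 has the larger mean share in H6 (60.6 against 32.0% for LAC17) and in H9 (49.96 against 39.5%). For LAC4 the order of H20 and H6, though not of H15 and H9, turns round without these contigs.

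The order of the contigs by RPKM, which is per length, differed between young and older hypocotyls. It is an order of contigs, which may be pieces of a transcript, and not of genes. In H6 and H9, LAC17 contig 8833 came first, with 76.1 ± 5.11 and 178.0 ± 19.3 RPKM, and its pools were above those of LAC4 contig 6676 in second place. With its 359 bp, contig 8833 drew 1240 reads in the 3 H6 pools, against 3726 for contig 6676. LAC13 was last on both days, with 2.58 ± 1.37 and 6.40 ± 2.32 RPKM. In H15 and H20 the order began with LAC4 contig 5768 (391.9 ± 21.7 and 291.6 ± 16.8 RPKM), LAC4 contig 6676 (256.6 ± 12.7 and 203.1 ± 8.57) and LAC17 contig 9466 (201.1 ± 19.1 and 163.5 ± 12.1). These 3 and the next, LAC4 contig 18137, were apart from each other on both days. Below them LAC5, LAC12 and LAC13 overlapped as neighbours in both H15 and H20. Of the 13 pairs of neighbours, the pools of 2 were apart at H6, 2 at H9, 6 at H15 and 7 at H20.

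Within a day, the pools were not equally rich in laccases. Pool H6-3 was the lowest of its day for 11 of the 14 contigs, and pool H9-2 for 12, while 39.3% and 32.3% of all contigs were lowest in those pools. Against the mean of the day on the log2(RPKM + 1) scale, the laccases lay at a median of -0.65 in H6-3 and -0.47 in H9-2, and between -0.09 and 0.11 in the H15 and H20 pools. The 6 contigs of secondary wall cellulose synthesis were all lowest in the same pools, and of the 17 monolignol pathway contigs 14 were lowest in H6-3 and 11 in H9-2. The 6 contigs of the phloem marker SEOR1, the 2 fibre markers and the 2 copper supply contigs, all described further on, were likewise all lowest in both pools. The remaining lists followed in part or not at all. Of 9 peroxidases, 6 were lowest in H6-3 and 4 in H9-2, of 9 wall regulators 6 and 2, and 21 of the 23 photosynthetic contigs were lowest in H6-1. Pool H6-3 had the most mapped reads of its day (16522500, against 13413472 and 15291151), and H9-2 (19334594) lay between 19075127 and 20193014. In H15-3 another set stood out: the 3 contigs under 400 bp (13485, 20927 and 8833) lay at -0.64 to -0.50 against the mean of the day, and LAC4 contig 18137 at -0.31. What sets these pools apart was not tested. Without H6-3 and H9-2 together, an alternative chosen after seeing the data, 13 laccase contigs were called higher in H9 against H6, 7 in H15 against H9 and 12 in H20 against H6.

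**Figure D4:**
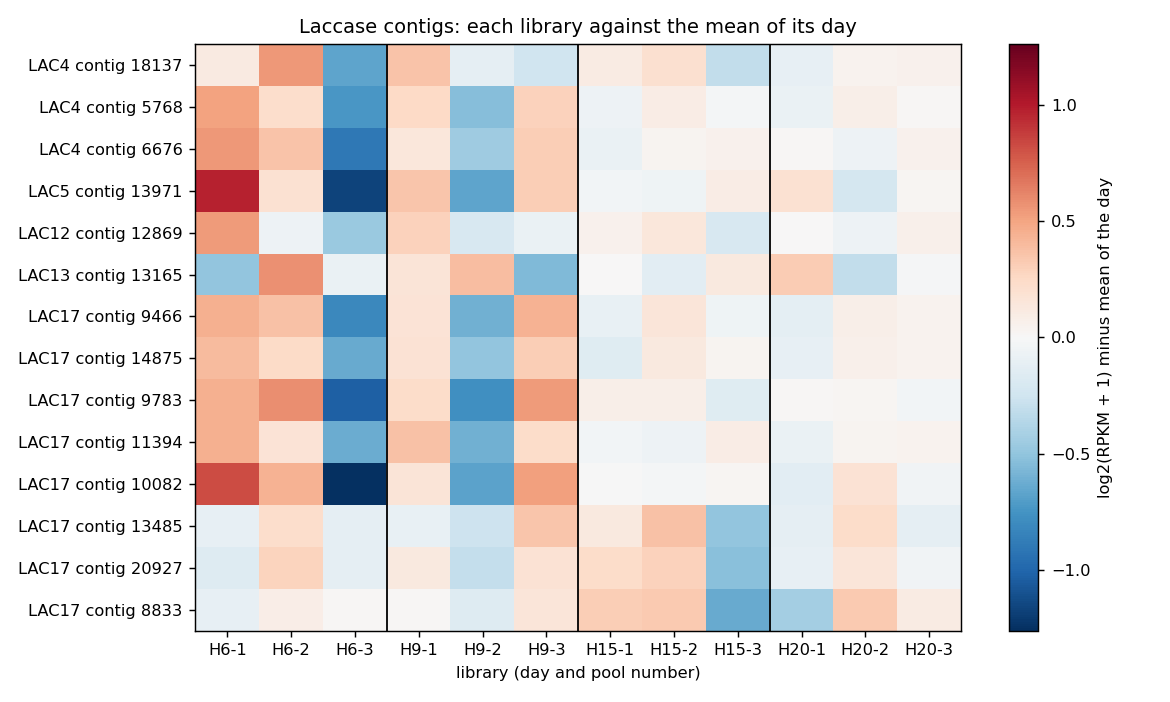
Level of each laccase contig in each of the 12 libraries as log2(RPKM + 1) minus the mean of the 3 pools of its day, in colour (blue below, red above). Pools H6-3 and H9-2 are below the mean for nearly all contigs, and the 3 LAC17 contigs under 400 bp share a low value in H15-3.

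The genes around the laccases in lignin and wall formation were taken from lists of Arabidopsis symbols and read in the same fit. Listed genes without a contig in this selected table are absent, also from the marker lists further on, so the counts cover selected contigs only. The 29 regulator loci listed gave 9 contigs, for example, and the 5 endodermis loci gave 1. Of 17 contigs of the monolignol pathway, which supplies the laccases with substrate, 14 were higher and 2 lower in H20 against H6. Of all contigs, 34.2% were higher and 37.4% lower. The median log2 fold change of this list was 2.25. The most abundant were CCoAOMT1, a methyltransferase of the pathway (1247 ± 103 RPKM in H20 and 281.2 ± 47.9 in H6), and C4H, its cinnamate hydroxylase (696.1 ± 48.8 in H20 and 188.6 ± 14.4 in H6). In H20 against H15, 1 contig of this list was higher and 1 lower, near the 5.25% and 8.31% of all contigs.

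Of 9 class III peroxidases, 7 were higher and 1 lower in H20 against H6, against 34.2% and 37.4% of all contigs, with a median of 2.45. PRX64 contig 2814, whose Arabidopsis match is expressed in lignifying cells, had 552.2 ± 77.6 RPKM in H20 and 99.4 ± 18.4 in H6. In H20 against H15, 1 peroxidase was higher and 2 were lower, against 5.25% and 8.31% of all contigs. Among the lower was PRX52 contig 11943, which fell by 1.09 (edgeR adjusted p 3.36e-04).

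All 6 contigs of secondary wall cellulose synthesis were higher in H20 against H6 (median 4.12), led by the cellulose synthase CESA4 (contig 804, 1421 ± 30.8 RPKM in H20 and 110.3 ± 32.1 in H6). Of 9 regulators of the secondary wall, 8 were higher and 0 lower (median 2.62), with WLIM1 contig 4635, an actin-binding LIM protein, and SND2, a NAC factor, as the most abundant. Of all contigs, 34.2% were higher and 37.4% lower in that comparison. In H20 against H15 neither list had a call in edgeR or DESeq2, while edgeR called 5.25% of all contigs higher and 8.31% lower. An unadjusted edgeR p under 0.05 was found for 0 of the cellulose and 1 of the regulator contigs, against 49.7% of all contigs. The medians of the 2 lists were 0.07 and -0.08. As percent of its highest day mean, the summed RPKM in H20 was 79.2 for the laccases, 99.6 for the monolignol pathway, 92.9 for the peroxidases, 100 for cellulose synthesis and 98.0 for the regulators. The difference between the laccases and these lists in that step was not tested.

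Copper supply, with 12 loci listed, was represented by only 2 contigs, both higher in H20 against H6. They were RAN1, a copper-transporting ATPase (log2 fold change 1.23, SE 0.10, edgeR adjusted p 9.12e-08), and SPL7, the Arabidopsis regulator of the copper response, under which microRNAs against several laccase transcripts are made (1.59, SE 0.12, adjusted p 6.57e-08). The other multicopper oxidases, ascorbate oxidases and relatives of SKU5, moved both ways, with 3 of 6 higher and 1 lower, against 34.2% and 37.4% of all contigs, and a median of 0.89. The most abundant of them, sks5 contig 1550, fell by 1.62 (SE 0.18, edgeR adjusted p 2.25e-06), with 33.7 ± 1.69 RPKM in H20 and 110.8 ± 32.3 in H6. Its summed list stood at 85.4% of its highest day in H20 and 86.1% in H6.

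Markers of the cells that make up the hypocotyl moved as well. Beside them, 34.2% of all contigs were called higher in H20 against H6 and 37.4% lower. FLA11 and FLA12, fasciclin-like proteins of secondary walls, were listed as fibre markers, but the study describes both as active in xylem vessels too in Arabidopsis. They were higher in H20 against H6 by 4.80 (SE 0.31, edgeR adjusted p 1.62e-08) and 7.12 (SE 0.93, adjusted p 7.66e-06). FLA12 had 1418, 621.8 and 1082 RPKM in H20 and an uneven 1.88, 21.6 and 0.72 RPKM in H6. The cambium markers WOX4 and PXY, 6 contigs of the sieve element protein SEOR1 and MYB36, a factor of the endodermis, were all called higher too. Of 3 contigs for enzymes of dying vessel cells, 0 were higher and 1 was lower: BFN1, with 12.5 ± 1.92 RPKM in H20 and 32.6 ± 7.69 in H6. Of 23 photosynthetic contigs, 20 were lower and 0 higher, and their summed level was 35.4% of that of H6 in H20. The part of these shifts in the laccase values was not tested.

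**Figure D5:**
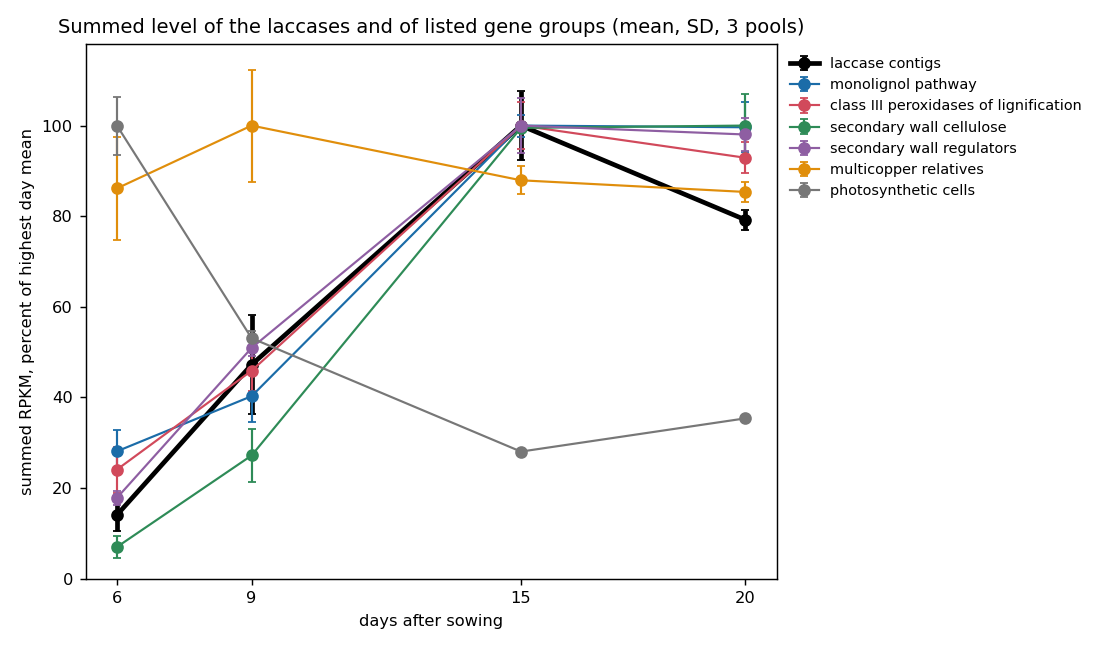
Summed RPKM of the laccase contigs (black) and of listed gene groups as percent of each group's highest day mean, against days after sowing; points are means and bars the SD of 3 pools. The laccases reach 100 in H15 and 79.2 in H20, cellulose synthesis stands at 7.02 in H6 and 100 in H20, and the photosynthetic contigs are highest in H6.

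Among the other 3608 contigs, many had a time course close to that of the family, with a Pearson r over 0.95 against the summed laccase RPKM for 8.79% of them (log2(RPKM + 1), 12 libraries that share the 4 days). The closest with a symbol was a patellin-3 contig (r = 0.997), with 186.2, 415.0, 615.6 and 555.9 RPKM on average in H6, H9, H15 and H20. It was followed by a leucine-rich repeat kinase, a protein with a plastocyanin-like copper domain (46.1, 247.3, 747.8 and 527.8 RPKM), TBL36, PAL1 (the entry enzyme of phenylpropanoid synthesis), ESK1 (a xylan acetyltransferase in Arabidopsis), EPSP synthase of the shikimate pathway, GAUT12, a putative glycosylase and an uncharacterised protein (AT1G62870), with r between 0.989 and 0.995. By name, the closest to LAC4 were HCT (r = 0.998), ESK1 and AT3G14170, and the closest to LAC5 were ESK1, HCT and IRX3, the cellulose synthase CESA7. LAC12 was most like a nucleotide sugar transporter (AT1G06890), VSR6 and an aspartyl protease (AT2G03200), and LAC13 most like AT5G06590, the metal-binding domain protein AT4G39700 and WRKY2. The summed LAC17 contigs had few close matches, with an r over 0.95 for 1.36% of the contigs, led by the replication protein MCM6 (r = 0.985), AT5G42560 and the kinase CRK.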

How the data were processed

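RNA-Seq was done on 12 pools of hemp hypocotyls, 3 for each of 4 days. Per the submitters' processing notes and the study's methods, the authors trimmed the reads, built a de novo assembly and mapped the libraries back to it in the CLC Genomics Workbench 8.0.3 (at most 3 hits per read), and annotated the contigs with Blast2GO PRO 3.0. The count values, as deposited, are the authors' numbers of uniquely mapped reads per contig. The deposited RPKM values are those counts scaled by the authors to contig length and mapped reads. The authors kept contigs with an ANOVA FDR under 0.05, a fold change over 2 and a difference over 10 RPKM, and the p-value, FDR and fold change columns were not used.

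Counts of all 3622 contigs were fitted in edgeR 4.0.16 (R 4.3.3) for the 12 libraries together, with the mapped reads implied by count, RPKM and length as library size, TMM factors (0.926 to 1.06) and 8 residual degrees of freedom. TMM takes most contigs to be unchanged, which these selected contigs are not, so a fit without TMM, DESeq2 1.42.0 and limma 3.58.1 on log2(RPKM + 1) and log2(RPKM + 0.1) were run beside it. The biological coefficient of variation was 0.168. Shares were tested over all 369600 assignments of the libraries to days. The fit and the permutation test were tested on simulated data. Every laccase contig is named, and from each list up to 4 contigs of highest mean RPKM, besides the other PRX52 contigs. Also named are the 10 contigs with a symbol whose log2(RPKM + 1) correlated best with the family's sum and the 3 for each name. Lists were matched by the Arabidopsis symbol or locus that a contig carries as its symbol. Photosynthetic contigs and copper oxidases were matched by a pattern in symbol or description, and 8 contigs were added by loci that the study gives. Members and lists were chosen with earlier results of these data known. The pools are separate samples of plants grown together, so p-values measure the spread between pools of 1 batch.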

Additional observations from a re-analysis of the deposited data

How the results depend on the processing

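No called laccase value changed sign under an alternative. Of 56 values, 3 with no call did: LAC17 contig 14875 in H15 against H9 (0.14; -0.00077 without TMM factors, -0.083 without pool H9-2), and in H20 against H15 LAC4 contig 18137 (-0.11; 0.02 without pool H15-2) and LAC17 contig 8833 (-0.02; up to 0.17). The test of the make-up by name called 5 of 5 throughout, although the order of the LAC4 share in H20 against H6 turned round without the contigs under 400 bp. The count of laccases lower in H15 against H9, 1 here, was 0 with DESeq2, 2 without TMM factors, 0 to 2 with a pool left out and 2 without pools H6-3 and H9-2 together. With a pool left out, 13 to 14 were higher in H9 against H6, 7 to 9 in H15 against H9, 12 to 13 in H20 against H6 and 0 in H20 against H15. With the replicate number as a block the counts were 14 higher in H9 against H6, 8 higher and 1 lower in H15 against H9, 0 in H20 against H15 and 12 higher in H20 against H6, so the block changed no call. The numbers do not pair the pools, since same-numbered pools correlated at -0.28 to 0.26 in their deviations from the day means, with 4 of 18 pairs over 0.1. Leaving out contigs under 10 RPKM on average (301) or by filterByExpr (0), limma with either pseudocount and fits of 2 days alone gave counts within 1.5 times. Relative to TMM, all contigs moved by a median of 0.23 and 0.29 with DESeq2 in H9 and H20 against H6, by 0.25 in H20 against H6 with those days alone, and by -0.14 and -0.10 without TMM in H15 against H9 and H20 against H6. The fewest H6 reads were those of LAC12 (163 over 3 pools) and LAC5 (190).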
